A study of Mus musculus with 8 samples.

Results

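The immediate early genes examined here were Fos, Fosb, Jun, Junb, Egr1, Ier2, Ier3, Dusp1, Klf6 and Myc, 10 of the 22180 genes with a probe set of their own on the array. Each was read from the probe set whose annotated gene symbol was exactly that gene. All 10 had 1 such probe set, and no probe set named any of them together with another gene. Liver RNA came from wild-type C57BL/6 mice in 8 samples, an array for each. 4 samples were from animals given rilpivirine by mouth daily, and 4 were from a control group. Rilpivirine is an antiretroviral drug that blocks HIV reverse transcriptase without being a nucleoside. Controls and treated animals carry the same disease label, non-alcoholic fatty liver disease. The protocol mentions a normal diet and a diet with 60% fat over 3 months without assigning them to samples. The dose is described only as clinically relevant. The sources used here do not give what the control animals received, the sex and age of the mice or the time of day of collection. Whether the 4 samples of a group are 4 separate mice is also unstated, so p-values cover only the spread between these samples, which may be technical.

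Immediate early genes are transcribed within minutes of a stimulus, because the kinases and transcription factors that switch them on are already present in the resting cell. Growth factors, cytokines, stress and glucocorticoids act through MAP kinases, serum response factor, CREB and the glucocorticoid receptor, and the messages are mostly short-lived. In liver they are known for their surge after partial hepatectomy and after handling or injury of the tissue. Fos and Jun proteins pair as the transcription factor AP-1, Egr1, Klf6 and Myc are further transcription factors, Dusp1 is a phosphatase that switches MAP kinases off, and Ier2 and Ier3 are small response proteins. The comparison asked whether these genes differed in fatty liver with rilpivirine.

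None of the 10 genes passed the test between rilpivirine and control, and in none did the 4 rilpivirine values separate from the 4 control values. 2 genes had a higher mean with rilpivirine and 8 a lower one, with differences from -0.22 to 0.16 log2 and a median of -0.08. Over all 16635 genes tested the median was -0.03, and 43.1% were higher and 56.9% lower with rilpivirine, so the direction was also the more frequent one among genes at large. In 9 of the 10 genes the difference was smaller than the pooled SD between samples of a group. Jun spanned 2.60 log2 over the 8 arrays, a 6.06-fold range, and rilpivirine replicate 4 held the highest value of 6 of the 10 genes.

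The promoter sequences of 4 genes are shown because Jun, Klf6 and Dusp1 shared their highest and their lowest array, rilpivirine replicates 4 and 2, whereas Fos, the founding member of the group, had its highest value in the same array and its lowest in another. Each stretch is the 150 bases before the annotated start of the gene, from RefSeq on build GRCm38.p6, written 5′ to 3′ on the strand of the gene. Jun lies at chr4:95052223-95052372 on the minus strand, Klf6 at chr13:5861339-5861488 on the plus strand, Dusp1 at chr17:26508473-26508622 on the minus strand and Fos at chr12:85473740-85473889 on the plus strand. Capitals mark the AP-1-like element TGACATCA, the cyclic AMP response element TGACGTCA and its core TGACG, and the E-box CACGTG, the letters that MYC and its partners read.
Jun: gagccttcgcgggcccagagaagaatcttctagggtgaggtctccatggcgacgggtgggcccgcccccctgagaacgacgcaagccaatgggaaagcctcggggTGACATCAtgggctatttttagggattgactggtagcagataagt
Klf6: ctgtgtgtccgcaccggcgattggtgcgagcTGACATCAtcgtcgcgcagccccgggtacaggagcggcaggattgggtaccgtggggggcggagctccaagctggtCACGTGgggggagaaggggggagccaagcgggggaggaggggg
Dusp1: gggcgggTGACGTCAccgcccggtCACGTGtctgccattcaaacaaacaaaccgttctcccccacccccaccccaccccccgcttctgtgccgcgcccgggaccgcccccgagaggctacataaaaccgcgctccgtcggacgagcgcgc
Fos: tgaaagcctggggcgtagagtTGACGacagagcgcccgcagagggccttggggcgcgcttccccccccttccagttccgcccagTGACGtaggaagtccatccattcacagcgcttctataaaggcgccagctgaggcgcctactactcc

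RefSeq promoters were found for 7 of the 10 genes, all but Egr1, Ier2 and Myc. The letters were searched on both strands of the 250 bases before the start, in 32851 promoters. TGACATCA, which starts 45 bases before the start of Jun and 119 before that of Klf6, was held by 2 of the 7 and by 2.93% of all promoters. TGACGTCA was held by Dusp1 alone of the 7, starting 143 bases upstream, and by 1.55% of all promoters. Its core TGACG, which every TGACGTCA contains, was in Fos, Fosb, Junb and Dusp1 and in 17.8% of all promoters. CACGTG was in Dusp1 and Klf6 and in 6.02% of all promoters. Within these 250 bases, the AP-1 letters TGACTCA and the CArG box of serum response factor were in 0 of the 7. They were in 4.46% and 1.47% of all promoters. Sites farther upstream were not searched, so these letters may still lie near the 7 genes. Of the EGR letters, GCGGGGGCG was in Fosb and in 2.57% of all promoters, and GCGTGGGCG was in 0 of the 7 and in 0.536%. Matching letters describe the sequence and do not show binding.

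The tissue was checked on markers of hepatocytes. Alb, the gene of albumin, measured 13.30 ± 0.05 log2 (SD, n = 4) with rilpivirine and 13.25 ± 0.02 in controls. The hepatocyte factor Hnf4a measured 9.71 ± 0.13 and 9.79 ± 0.05 (SD, n = 4 each). Array medians lay between 3.33 and 3.45 log2, and each array's mean correlation with the others was 0.976 to 0.981, except 0.965 for rilpivirine replicate 2. In bulk liver, a lower value from fewer cells of a type and one from less RNA per cell cannot be told apart.

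Fos, the namesake subunit of AP-1, measured 4.29, 4.34, 3.85 and 4.49 log2 in rilpivirine replicates 1 to 4. It measured 4.11, 4.03, 4.23 and 3.95 in control replicates 1 to 4. 3 of the 4 rilpivirine values lay above all controls and the remaining one, replicate 3, lay below all of them, so the groups overlapped. The difference, rilpivirine minus control, was 0.16 ± 0.15 log2 (SE), with a 95% confidence interval of -0.17 to 0.49 and an adjusted p of 0.903 in limma over all genes tested. The interval runs from a 1.12-fold lower to a 1.40-fold higher level.

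Fosb, the FOS paralog that forms AP-1 with the same JUN partners, went the other way. Both genes were dim, with means over the 8 arrays of 4.16 log2 for Fos and 3.97 for Fosb. The 50th percentile of mean level over all genes was 3.91. Whether differences of this size at such levels follow the transcripts was not tested. Fosb measured 3.65, 4.04, 3.96 and 3.79 log2 with rilpivirine and 4.15, 4.24, 3.91 and 4.01 in controls. The lowest values were rilpivirine replicates 1 and 4, and the highest were control replicates 2 and 1. Its difference of -0.22 ± 0.13 log2 (SE) was the lowest of the 10, with an adjusted p of 0.890 in limma. It was the only member whose difference exceeded its pooled SD within groups, 0.16 log2.

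Jun, the main DNA-binding partner of FOS, was the most variable member. It measured 6.49, 5.53, 6.55 and 8.13 log2 with rilpivirine and 7.18, 6.87, 6.87 and 6.22 in controls. The highest and the lowest of the 8 values were both from the rilpivirine group, replicates 4 and 2, with all controls between them. The SD was 1.08 with rilpivirine and 0.40 in controls (n = 4 each). The difference of the means was -0.11 ± 0.44 log2 (SE), and its 95% interval of -1.07 to 0.86 leaves room for a 2.10-fold lower or a 1.81-fold higher level. Without rilpivirine replicate 4 the difference was -0.59, and without replicate 2 it was 0.27. Neither value passed the test.

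Junb, a JUN paralog that activates transcription less strongly, did not share the extremes of Jun. It measured 5.94, 6.50, 6.23 and 6.35 log2 with rilpivirine and 6.03, 6.70, 6.64 and 6.24 in controls. Replicate 1 was the lowest of each group. The difference was -0.15 ± 0.18 log2 (SE; adjusted p = 0.916 in limma).

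**Figure D1:**
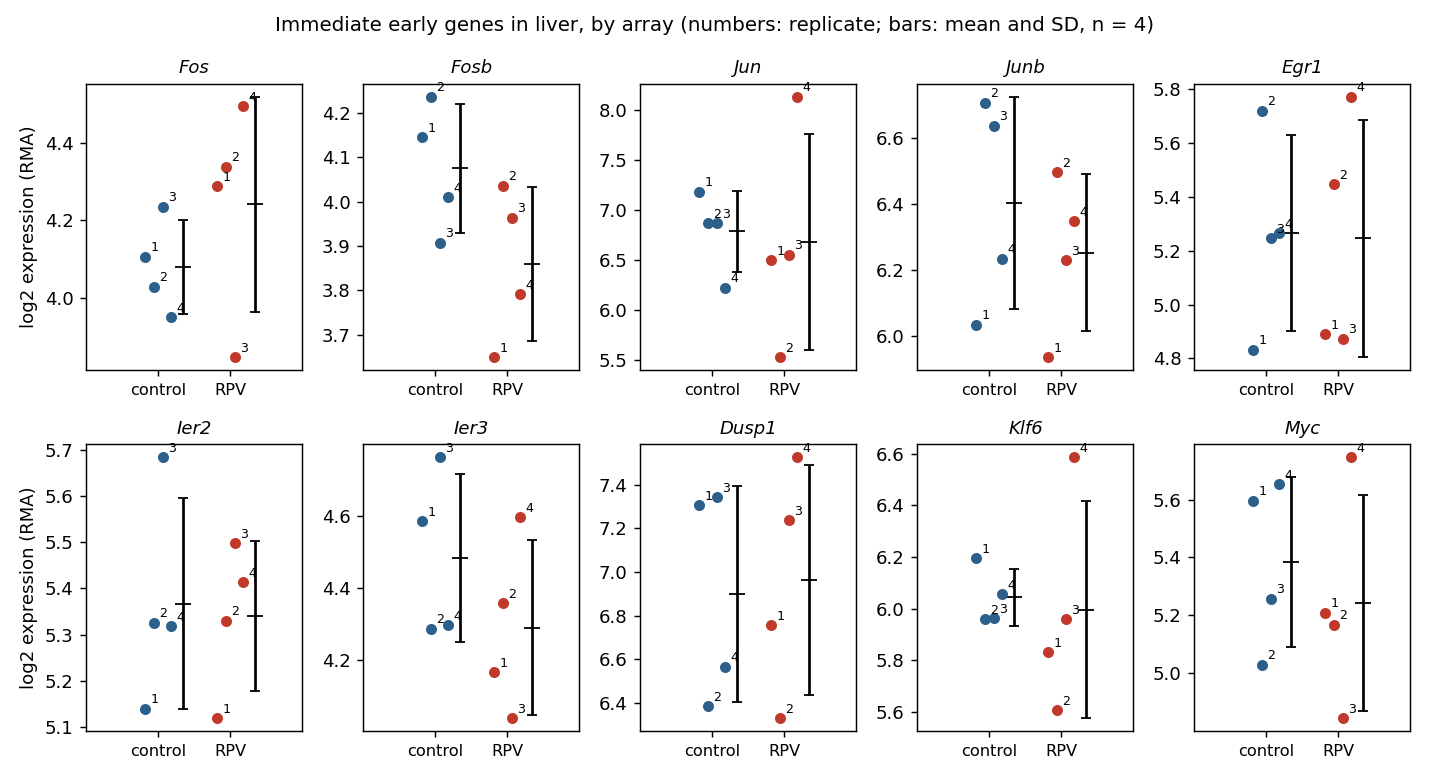
Log2 expression (vertical axis) of the 10 genes in each of the 8 liver arrays, with control in blue and rilpivirine (RPV) in red; numbers give the replicate, and black bars the mean and SD (n = 4 per group). Vertical axes differ between panels and do not start at 0; the groups overlap in all 10 genes, and rilpivirine replicate 4 is the highest point for Fos, Jun, Egr1, Dusp1, Klf6 and Myc.

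Egr1, a zinc-finger transcription factor induced by MAP kinases and serum response factor, had nearly equal group means. It measured 4.89, 5.45, 4.87 and 5.77 log2 with rilpivirine and 4.83, 5.72, 5.25 and 5.27 in controls. Low and high arrays occurred in each group, and the difference was -0.02 ± 0.23 log2 (SE). Klf6, a Krüppel-like factor, measured 5.83, 5.61, 5.96 and 6.59 log2 with rilpivirine and 6.19, 5.96, 5.96 and 6.06 in controls. As in Jun, rilpivirine replicates 4 and 2 were the extremes, and the controls lay within 0.24 log2 of each other. The difference of Klf6 was -0.05 ± 0.19 log2 (SE).

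Myc, the growth-promoting factor that pairs with MAX, measured 5.21, 5.17, 4.85 and 5.75 log2 with rilpivirine. In controls it measured 5.60, 5.03, 5.26 and 5.65. Control replicates 1 and 4 lay close to rilpivirine replicate 4 at the top, and rilpivirine replicate 3 was the lowest. The difference was -0.14 ± 0.20 log2 (SE; adjusted p = 0.927 in limma).

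Dusp1 removes the activating phosphates from MAP kinases and is also a target of the glucocorticoid receptor. It measured 6.76, 6.33, 7.24 and 7.53 log2 with rilpivirine and 7.31, 6.38, 7.34 and 6.57 in controls. High and low values occurred in each group, 7.24 and 7.53 against 6.76 and 6.33 with rilpivirine and 7.31 and 7.34 against 6.38 and 6.57 in controls. The difference was 0.06 ± 0.29 log2 (SE).

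Ier3, a stress-inducible protein linked to survival of the cell, measured 4.17, 4.36, 4.04 and 4.60 log2 with rilpivirine and 4.59, 4.29, 4.76 and 4.30 in controls. Its difference of -0.19 ± 0.16 log2 (SE) kept its sign in every alternative that was tried, as did those of Fos, Fosb and Junb. Ier2, a nuclear early response protein, measured 5.12, 5.33, 5.50 and 5.41 log2 with rilpivirine and 5.14, 5.33, 5.68 and 5.32 in controls. Its difference was -0.03 ± 0.14 log2 (SE), and the lowest value of each group was again replicate 1.

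Of the 10 genes, 0 passed an adjusted p of 0.05 in limma, against 0% of all genes tested; 0 had an unadjusted p under 0.05, against 5.21%; and 0 had groups that did not overlap, against 3.04%. Adjusted p-values of the 10 ran from 0.890 to 0.992. Exact permutation tests of each gene's difference over the 70 splits of the arrays, two-sided, gave p from 0.143 for Fosb to 1.0 for Egr1, where the design allows no p below 0.0286. The 95% intervals show how much could have been missed, and across the 10 genes they reached from -1.07 to 0.86 log2, both limits from Jun. For the 9 other genes the intervals contained no rise above 1.62-fold (Dusp1) and no fall beyond 1.50-fold (Myc).

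**Figure D2:**
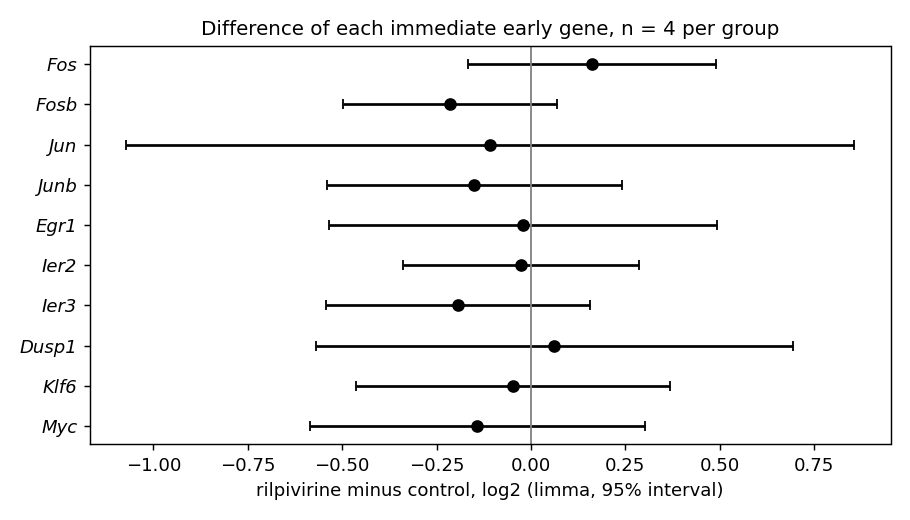
Rilpivirine minus control on the log2 scale (horizontal axis) for each gene, as points with the 95% confidence interval of the limma fit (n = 4 per group). All 10 intervals include 0; that of Jun, -1.07 to 0.86, is the widest.

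The pooled SD within groups had a median of 0.29 log2 over the 10 genes and 0.21 over all genes tested, and 8 of the 10 lay above the latter. Among all genes tested, Jun stood at the 99.6th percentile of this SD, Dusp1 at the 96.4th, Egr1 at the 91.3rd and Myc at the 84.7th. Fosb and Ier2 stood at the 28.1st and 45.5th. These positions are a description, as the SD also depends on a gene's brightness on the array.

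In rilpivirine replicate 4, 9 of the 10 genes lay above their own mean of 8 arrays, all but Fosb, where 54.6% of all genes tested did. The deviation there had a median over the 10 genes of 0.38 log2. It was the highest array for 6 of the 10, where it was the highest for 16.6% of all genes tested. Jun stood 1.40 log2 above its mean there and 1.93-fold above the next array, and Klf6 stood 1.31-fold above the next. By Dixon's test at the 95% level, 0 of the 20 groups of 4 values, Jun with rilpivirine included, held an outlier. With only 4 values per group this test has little power, so it cannot decide whether rilpivirine replicate 4 is an outlying array. In rilpivirine replicate 1, by contrast, 9 of the 10 lay below their mean, all but Fos, and in replicate 3 it was 8 of the 10. Of all genes tested, 51.0% lay above their own mean in replicate 1 and 45.8% in replicate 3. The mean of 8 arrays includes replicate 4, so a high value there places the other arrays lower against it. Among controls the number of the 10 genes above their mean ran from 4 to 6 in each array. Rilpivirine replicate 2, the array that correlated least with the rest, was the lowest for Jun, Dusp1 and Klf6 and stood 1.20 log2 below the mean of Jun, although it was the lowest for 30.2% of all genes tested.

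**Figure D3:**
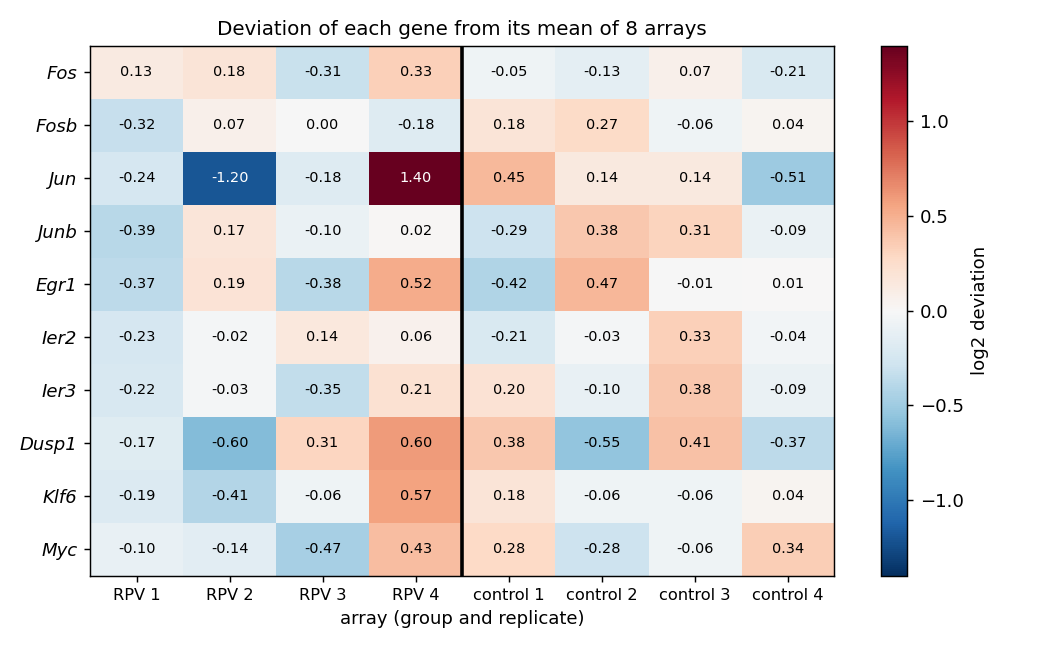
Deviation of each gene (rows) from its own mean of 8 arrays, in log2, for each array (columns, RPV for rilpivirine; the black line divides the groups); red is above and blue below the mean. Rilpivirine replicate 4 is above the mean in 9 of 10 genes, with 1.40 for Jun, and rilpivirine replicate 2 is at -1.20 for Jun.

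Without rilpivirine replicate 4, 9 of the 10 genes were lower with rilpivirine and Fos was higher, and the median difference was -0.19 log2. In that setting 58.2% of all genes tested were lower. Klf6 then differed by -0.24, Myc by -0.31, Ier3 by -0.30 and Egr1 by -0.20, and 0 of the 10 passed (smallest adjusted p 0.555, for Jun). Without rilpivirine replicates 1 and 2 together, 6 of the 10 were higher and the median was 0.07, and again 0 passed. That fit, here and below, kept only rilpivirine replicates 3 and 4. Replicate 4, the highest array for 6 of the 10, therefore weighed more in it, and its upward turn is no separate result. A further quantile normalization gave 5 higher and 5 lower with a median of 0.01, while 49.99% of all genes tested were then lower.

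Markers of some other liver cells also lay beyond the other 7 arrays in rilpivirine replicate 4. The mean of 12 Kupffer cell markers, the resident macrophages, deviated by -0.40 log2 from its mean of 8 arrays there, and ran from -0.17 to 0.15 in the other rilpivirine arrays and from -0.08 to 0.30 in controls. The 6 markers of T and NK cells were at -0.27 there, at -0.16 to 0.32 in the other rilpivirine arrays and at -0.07 to 0.09 in controls. Most of them were dim, with Cd4 at 2.60 to 3.66 and Cd8a at 2.91 to 3.59 log2. Only 1 of the 6, Nkg7 at 4.18 to 4.56, reached the 50th percentile of mean level over all genes, 3.91. The 4 B cell markers were at -0.30 there, at -0.12 to 0.30 in the other rilpivirine arrays and at -0.12 to 0.10 in controls. Of these 4, 2 reached that percentile, and Pax5 was at 2.91 to 3.33 log2. The 12 stellate cell markers were at 0.18, above the -0.13 to -0.04 of the other rilpivirine arrays and the 0.01 to 0.07 of controls. The 9 markers of the monocyte and lipid-associated macrophage list, at 0.32, lay above the other rilpivirine arrays (-0.47 to -0.17) but within the range of controls (-0.01 to 0.46). The 9 hepatocyte markers, at -0.05, lay within the range of the other rilpivirine arrays (-0.12 to 0.03) but below all controls (-0.02 to 0.09). The part of these differences in the levels of the immediate early genes was not tested.

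No pair of the 10 genes passed a test of correlation over the 8 arrays. Over the 45 pairs, Pearson's r over the 8 arrays was positive in 32 and negative in 13, with a median of 0.27; the same median over pairs of all genes was not computed. After Benjamini-Hochberg adjustment over the 45 pairs, 0 passed in exact permutation tests, by r or by Spearman's rho. Among the AP-1 subunits, Fos and Jun had r = 0.31 (rho = 0.14, exact permutation p = 0.469 and 0.752, adjusted p = 0.870 and 0.969), and r was -0.38 without the 2 arrays farthest from the median of Fos. Fos and Fosb had r = -0.51 (rho = -0.40, exact permutation p = 0.198 and 0.327, adjusted p = 0.856 and 0.900), and -0.55 without those 2 arrays. Jun and Junb had r = -0.04 (rho = 0.10, exact permutation p = 0.933 and 0.840, adjusted p = 0.954 and 0.969), and 0.21 without rilpivirine replicates 2 and 4. Fos with Egr1 had r = 0.42, with Dusp1 0.18 and with Junb 0.06, and Egr1 with Ier2 had 0.27, with rho of 0.45, 0.21, 0.10 and 0.24. Their exact permutation p-values ran from 0.293 to 0.879 for r and from 0.267 to 0.840 for rho (adjusted p 0.856 to 0.954 for r), and without the 2 arrays farthest from the median r was -0.21, 0.08, -0.04 and 0.39.

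4 pairs had an unadjusted permutation p under 0.05 for r and were chosen for description after their values were seen. Jun and Klf6 had r = 0.92 (rho = 0.69, exact permutation p = 0.00456 and 0.0694, adjusted p = 0.205 and 0.623). Jun and Dusp1 had r = 0.75 (rho = 0.71, exact permutation p = 0.0186 and 0.0576, adjusted p = 0.418 and 0.623). Dusp1 and Klf6 had r = 0.70 (rho = 0.76, exact permutation p = 0.0342 and 0.0368, adjusted p = 0.464 and 0.623). The relation of Jun with Klf6 rested in large part on rilpivirine replicates 2 and 4, without which r was 0.45, that of Jun with Dusp1 was then 0.46 and that of Dusp1 with Klf6 0.30. Without the 2 arrays farthest from the median of Dusp1, rilpivirine replicate 2 and control replicate 2, r of Dusp1 and Klf6 was 0.58. Junb and Egr1, which share none of these genes, had r = 0.73 (rho = 0.69, exact permutation p = 0.0479 and 0.0694, adjusted p = 0.464 and 0.623), and 0.53 without control replicate 2 and rilpivirine replicate 1. With each gene taken as its deviation from its group mean, r was 0.92, 0.76, 0.71 and 0.75 in these 4 pairs.

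**Figure D4:**
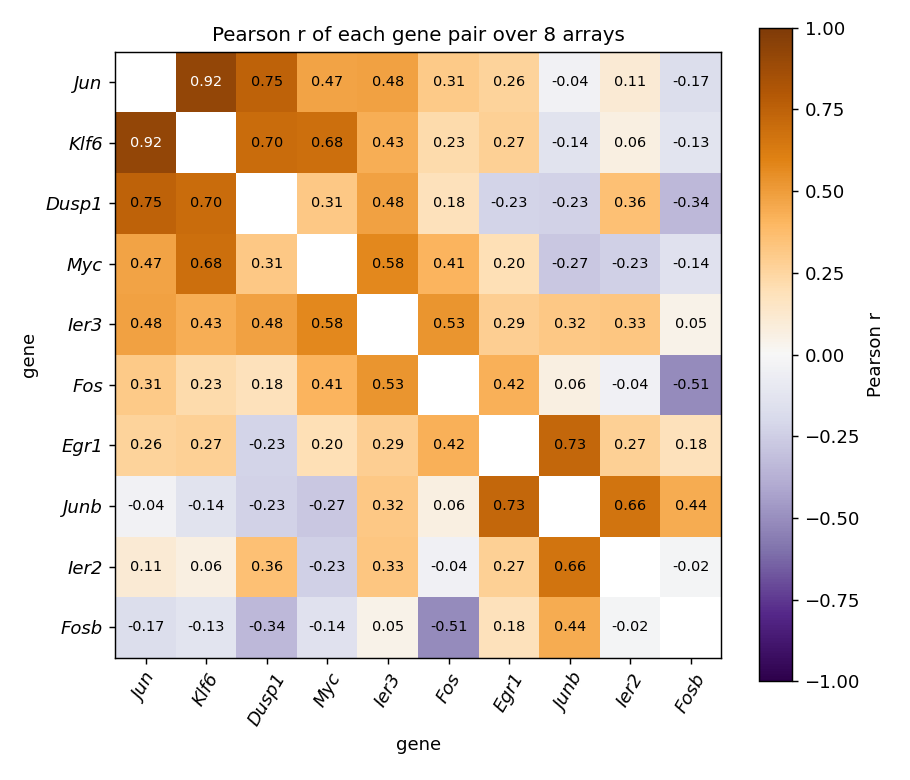
Pearson's r over the 8 arrays for each of the 45 pairs of the 10 genes (rows and columns), orange for positive and purple for negative values. Jun, Klf6 and Dusp1 have r of 0.70 to 0.92 with each other, and Junb with Egr1 has 0.73, while Fos with Fosb has -0.51.

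Among the genes tested, those whose levels over the 8 arrays were most like those of Fos were Ap2b1, Cav1, Lamb2, Peg10 and Gfer, with r from 0.950 to 0.979. Cav1, of the caveolae of endothelial and other cells, and Gfer, a growth factor and sulfhydryl oxidase of liver, ranked the 8 arrays exactly as Fos did (rho = 1.0). Fos and Cav1 were dim, with means of 4.16 and 3.94 log2, while Ap2b1 and Gfer were brighter, at 6.96 and 6.18. None of the 16634 relations with Fos passed adjustment in exact permutation tests (smallest adjusted p = 0.413), and 4.21% had an unadjusted p under 0.05. Without rilpivirine replicates 3 and 4, the 2 arrays farthest from the median of Fos, r of the 5 genes was 0.884 to 0.984. Of the other 9 immediate early genes, Ier3 came nearest to Fos, at rank 1612, and Fosb was at rank 15334.

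Further genes of the same response were read from lists of related genes. None of the 118 tested passed in limma, 5 had an unadjusted p under 0.05, which is 4.24% against 5.21% of all genes tested, and the groups did not overlap in 5 of the 118, where 3.04% of all genes tested had such groups. The former were Mafg, Trib1, Sik1, Met and Mxi1, all lower with rilpivirine, and the latter were Mafg, Trib1, Met, Mnt and Tnfaip3. Tnfaip3, which restrains NF-kB and was named only because its groups did not overlap, differed by -0.17 ± 0.11 (SE). The 12 other AP-1 and small Maf genes tested split evenly, 6 higher and 6 lower, around a median of 0.002 log2, and a further quantile normalization gave 8 higher and 4 lower. Jund, the JUN paralog that is expressed steadily, differed by 0.18 ± 0.19 (SE) and Atf3, a stress-induced partner of JUN, by 0.23 ± 0.32 (SE). Mafg, a small Maf protein, measured 4.96, 4.56, 5.02 and 4.95 log2 with rilpivirine and 5.28, 5.25, 5.38 and 5.14 in controls. Its groups did not overlap, at a difference of -0.39 ± 0.13 (SE) and an adjusted p of 0.853. Atf7 differed by -0.12 ± 0.13 (SE).

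Of 17 other early-response transcription factors 6 were higher and 11 lower (median -0.03), and the direction turned without rilpivirine replicates 1 and 2 together, with 12 higher and 5 lower, and without control replicate 3, with 9 and 8. Egr2, a paralog of Egr1, differed by 0.28 ± 0.13 (SE), the Krüppel-like factors Klf4 and Klf10 by 0.21 ± 0.14 and -0.38 ± 0.27, and Cebpb, an inducible factor of the acute phase, by -0.47 ± 0.26 (SE). Of 34 other effectors and feedback inhibitors 11 were higher and 23 lower (median -0.08). The pseudokinase gene Trib1 measured 6.08, 6.22, 6.00 and 6.15 log2 with rilpivirine and 6.55, 6.55, 6.59 and 6.25 in controls. It did not overlap between groups, at a difference of -0.37 ± 0.12 (SE) and an adjusted p of 0.844. Sik1, a kinase induced by cyclic AMP, differed by -0.47 ± 0.20, Ier5 by 0.20 ± 0.13 and Sgk1, a kinase induced by glucocorticoids, by 0.19 ± 0.13 (SE). Without rilpivirine replicate 2, 18 of the 34 were lower and the median was -0.01.

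Rilpivirine replicate 4 was the highest array for some of these lists' genes and not for others. It was the highest for 6 of the 12 AP-1 and Maf genes, 8 of the 17 transcription factors and 6 of the 15 MAP kinase cascade genes, against 16.6% of all genes tested. It was the highest for 8 of the 34 effectors, 3 of the 16 MYC targets, 1 of the 11 MYC partners and antagonists and 0 of the 13 SRF and CREB factors. Nr4a1, an orphan nuclear receptor of the immediate early class, measured 6.35 log2 in that array and 3.55 to 4.38 in the other 7, a level 3.91-fold above the next. Ccn1, a matrix protein induced by serum, measured 7.68 there and 5.69 to 6.79 elsewhere. Atf3 measured 6.29 there and 4.61 to 5.58 elsewhere. Nr4a1 and Ccn1 were picked out after their values were seen.

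Upstream of the immediate early genes, 14 of 15 genes of the MAP kinase cascade had a lower mean with rilpivirine and 1 a higher one (median -0.15), against 56.9% lower among all genes tested. Met, the receptor of hepatocyte growth factor, measured 7.73, 7.46, 7.79 and 7.83 log2 with rilpivirine and 8.34, 8.10, 8.14 and 7.96 in controls. The groups did not overlap, and the difference was -0.43 ± 0.13 (SE; adjusted p = 0.813 in limma). Map2k6, an activator of p38 kinases, differed by -0.61 ± 0.28 and Rps6ka5, a kinase of the nucleus, by 0.04 ± 0.12 (SE). The size of the median depended in part on rilpivirine replicate 2, where the mean deviation of the list was -0.33. Without that array the median was -0.04, with 12 of 15 lower, and without rilpivirine replicates 1 and 2 together it was -0.004, with 8 of 15 lower. A further quantile normalization gave -0.06, with 11 of 15 lower. A covariate for each array's small nucleolar RNA signal gave -0.02, with 10 of 15 lower. Of 13 genes of the SRF and CREB factors 4 were higher and 9 lower (median -0.04), and Mrtfa, Elk4, Ep300 and Mrtfb differed by 0.10, 0.10, -0.17 and -0.16 (SE 0.11 to 0.15). The direction of this list turned under a further quantile normalization, with 10 higher and 3 lower (median 0.03), and 7 were higher and 6 lower without rilpivirine replicate 3, without control replicate 2, or without rilpivirine replicates 1 and 2 together.

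Around Myc, 3 of 11 partners and antagonists were higher and 8 lower (median -0.14). Mxi1, which competes with MYC for MAX, differed by -0.28 ± 0.12 (SE) with overlapping groups and an adjusted p of 0.890. Mnt, another antagonist, measured 4.72, 4.59, 4.66 and 4.71 log2 with rilpivirine and 5.03, 4.78, 4.95 and 4.80 in controls. Its groups did not overlap, at a difference of -0.22 ± 0.11 (SE). Mycn differed by 0.15 ± 0.12 and Mxd3 by 0.08 ± 0.12 (SE). Both were dim, with means of 3.76 log2 with rilpivirine and 3.61 in controls for Mycn, and 3.47 and 3.39 for Mxd3. With genes under the 50th percentile of mean level left out, 8 partners and antagonists were lower and 1 higher. Of 16 MYC target genes 6 were higher and 10 lower (median -0.04), and the further quantile normalization and the fit without control replicate 2 each gave 8 and 8. The covariate for small nucleolar RNA signal turned the direction, with 9 higher and 7 lower (median 0.04). Among the MYC targets Bop1, of ribosome assembly, differed by 0.19 ± 0.17, Nme1 by 0.21 ± 0.20, Pa2g4 by -0.29 ± 0.16 and Ldha, of glycolysis, by -0.17 ± 0.12 (SE). Nme1 was dim, with means of 3.68 log2 with rilpivirine and 3.47 in controls.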

How the data were processed

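The authors deposited log2 values of 41345 probe sets in 8 samples. The submitters' processing notes name RMA and limma, without versions or order. Per the labels' protocols, 300 ng of RNA per sample were labelled with an Affymetrix whole-transcript kit. RMA shares its normalization across arrays, so a change in total mRNA could not be seen. The platform annotation gave 1 symbol for 23521 probe sets, several for 1814 and none for 16010. For each symbol the probe set with the highest mean over the 8 arrays was kept. Genes below the 25th percentile of mean level (2.72 log2) were dropped, which left 16635 for the test.

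The fit was limma's lmFit followed by eBayes (limma 3.58.1, R 4.3.3), two-sided and without a block, with Benjamini-Hochberg adjustment over all genes tested and a threshold of 0.05; intervals are 95% intervals of that fit. Correlations used exact permutation tests over all orders of the arrays. The scripts were tested on simulated data in which 200 genes were changed. Of changes of 0.5, 1 and 2 log2, 0%, 77.5% and 97.5% passed in the right direction. A lack of calls therefore says little about changes of 0.5 log2 or less. The 10 genes, the related lists and the rules for named genes were chosen with earlier results of these data known. Named were the 10 genes, Alb and Hnf4a as a tissue check, from each related list up to 2 genes in each direction with the smallest p, and the 5 genes with the highest r with Fos. Of the tissue check, Apoa1 was also read (difference 0.01 log2). Marker lists had median differences of -0.08 (hepatocytes), -0.16 (Kupffer cells), -0.32 (monocytes and lipid-associated macrophages), 0.06 (neutrophils), 0.25 (sinusoidal endothelium), -0.07 (stellate cells), 0.09 (cholangiocytes), 0.08 (T and NK cells), 0.03 (B cells), 0.23 (skeletal muscle) and -0.09 log2 (pancreatic acinar cells), and 0 of their genes passed. Python 3.11.15 and matplotlib 3.10.9 made the figures. The number of arrays limits the precision.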

Additional observations from a re-analysis of the deposited data

How the results depend on the processing

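In all 19 alternatives 0 of the 10 genes and 0 genes overall passed, so no call of a gene depended on the processing. The smallest adjusted p of any gene in a limma alternative was 0.182, and an exact permutation test gave 505 genes at an unadjusted p under 0.05 and limma 867. At an unadjusted p under 0.05, limma gave 0 of the 10 genes in each alternative except without rilpivirine replicate 3, where it gave Fos (difference 0.29, adjusted p = 0.670). The median of the 10 genes ran from -0.19 to -0.02 log2 with each sample left out in turn. Differences of Fos, Fosb, Junb and Ier3 kept their sign in all alternatives, and the other 6 changed sign in at least 1.

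A further quantile normalization gave Egr1 0.0475, Ier2 0.0507 and Klf6 0.0315, and array weights gave Jun 0.0455. A covariate for each array's small nucleolar RNA signal gave Jun 0.33, Klf6 0.15 and Myc 0.0396. Without rilpivirine replicates 1 and 2 together, Jun was at 0.56, Egr1 at 0.0562, Ier2 at 0.0888 and Klf6 at 0.23. With each sample left out in turn, Jun ran from -0.59 to 0.27, Egr1 from -0.20 to 0.13, Ier2 from -0.10 to 0.0791, Klf6 from -0.24 to 0.0820 and Dusp1 from -0.13 to 0.27. For pairs, r of Fos and Junb ran from -0.0266 to 0.25 with a sample left out and was -0.00716 after centring of the arrays, that of Fos and Jun ran from -0.30 to 0.72 (-0.30 without rilpivirine replicate 4), that of Fos and Dusp1 from -0.19 to 0.44, and that of Jun and Junb from -0.14 to 0.16, with 0.00157 without rilpivirine replicates 1 and 2 together. Jun and Klf6 passed without control replicate 4 (r = 0.97, permutation adjusted p = 0.0357) and in no other alternative. The causes were not tested.

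With the replicate number as a block 0 of the 10 genes passed, the differences were the same by construction (median -0.08), and 1071 genes in place of 867 had an unadjusted p under 0.05. Deviations of same-numbered arrays correlated at -0.25, 0.46, -0.09 and 0.07. The best-matching control bore the same number for rilpivirine replicate 2 and another number for replicates 1, 3 and 4. The labels do not say whether the numbers pair the samples, and with 4 arrays per group these values cannot settle it. Alternatives for the medians of related lists and for 4 of the pairs were added after seeing the data.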
